A study of Drosophila melanogaster with 10 samples.

Results

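The genes described here are the stress sensors and first effectors of the unfolded protein response in Drosophila melanogaster, namely Atf6, ire-1, Xbp1, PEK, Gcn2, crc, Hsc70-3 and Gp93. They were taken from the deposited expression table as every probe set annotated to exactly 1 of these symbols, in that spelling and case, or to another name of the same gene. The choice gave 9 probe sets for the 8 genes, of 18769 non-control probe sets, which carry 12270 named genes. The symbol Crc with a capital, which the array uses for calreticulin, is a different gene from crc, the fly ATF4, and was not taken as a member. The expression values come from DL1 cells, a cultured Drosophila line. The cells were bathed in double-stranded RNA (dsRNA) against nbr or, as the control, in dsRNA against renilla, a luciferase gene that is not native to the fly. Both groups were grown at the same temperature and collected 5 days after bathing. Each had 5 independent replicates according to the design text, and each replicate gave 1 Affymetrix Drosophila_2 array.

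The endoplasmic reticulum (ER) folds secreted and membrane proteins, and 3 sensors in its membrane report when unfolded protein builds up. IRE1 is a kinase and ribonuclease that removes a short intron from Xbp1 mRNA, so that the transcription factor XBP1 is made. PERK, in the fly PEK, is a kinase that phosphorylates the translation factor eIF2alpha, which lowers general translation and favours translation of ATF4, in the fly crc. ATF6 is known from mammals as a transcription factor that is held in the ER membrane and released by proteases in the Golgi. Much of this signalling runs through splicing, phosphorylation, translation and cleavage. The arrays read mRNA levels per probe set and none of those steps.

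The nbr level was lower on every treated array than on any control array. The nbr probe set (FBgn0032924), for the exoribonuclease that trims microRNA 3' ends, read 7.56 to 8.84 on the nbr RNAi arrays, against 11.16 to 11.48 on the control arrays, on the log2 scale. It was highest among the treated arrays on nbr RNAi array 5, at 8.84, which is 0.81 above the mean of nbr RNAi arrays 1 to 4. In limma, with Benjamini-Hochberg adjustment over 7729 tested probe sets, 2 probe sets (0.0259%) had an adjusted p under 0.05, nbr among them. Plasmatocytes are the blood cells of the fly that take up microbes and debris, and of 10 of their markers 9 had a mean log2 level of at least 4, the minimum used for testing, and Col4a1 lay under it. The marker elav was the only one of 5 neuron markers above that minimum, and all 5 muscle, all 5 fat body and all 5 germline markers lay under it. On nbr RNAi array 5 the median correlation with the other arrays, across probe sets, was 0.982, and on the other 9 arrays it ran from 0.994 to 0.997. Each member is therefore given with and without that array, and so are the named genes of the lists where leaving it out turned the sign or moved the value by over 1.5 times.

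Of the 8 genes, all had at least 1 probe set above the minimum, and none passed the test. The count is 0 of 8 tested probe sets, against 0.0259% of all tested. At an unadjusted p under 0.05 in limma there was 1 of 8, Atf6, against 5.87% of all tested probe sets. For each of the 8 the levels of both groups overlapped, where the groups did not overlap for 0.97% of all tested. The log2 fold changes of nbr RNAi over control RNAi ran from -0.11 for ire-1 to 0.18 for Atf6, with a median of 0.013 against 0.0056 over all tested probe sets. The median size of a fold change, sign aside, was 0.049 in the members and 0.056 over all tested.

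**Figure D1:**
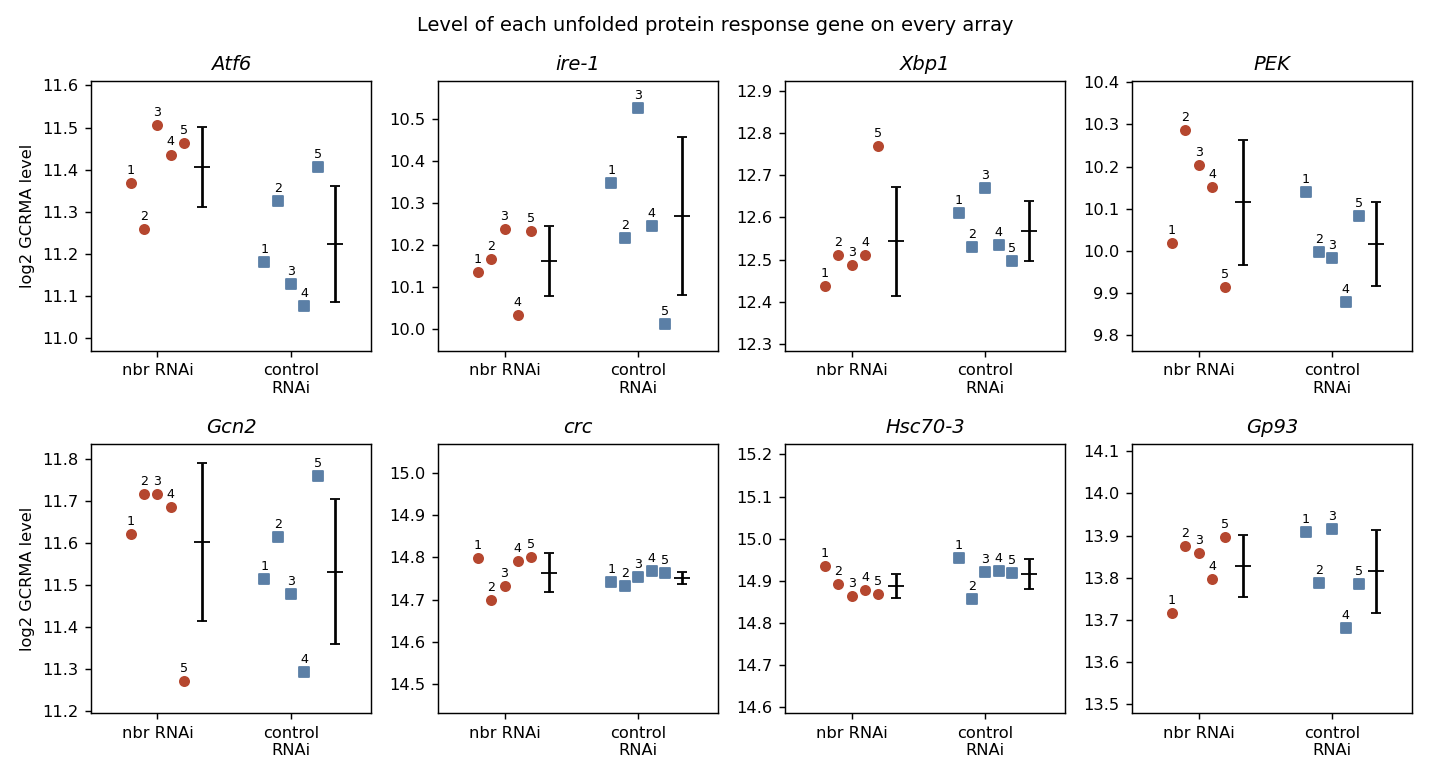
Log2 GCRMA level of each tested probe set on every array, with the replicate number beside each point, nbr RNAi as circles and control RNAi as squares; bars show the mean ± SD (n = 5), and each panel has its own range of equal height. The groups overlap in all 8 panels, and nbr RNAi array 5 stands apart from nbr RNAi arrays 1 to 4 for Xbp1 and Gcn2.

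The ATF6 branch holds the member with the largest difference. Atf6 (FBgn0033010) read 11.37, 11.26, 11.50, 11.44 and 11.46 on nbr RNAi arrays 1 to 5, against 11.18, 11.33, 11.13, 11.08 and 11.41 on control arrays 1 to 5. All 5 nbr RNAi arrays lay above the control mean, and 3 of them lay above every control array. Array 2 of nbr RNAi lay under control arrays 2 and 5, so the groups overlapped. The mean was 11.41 ± 0.096 in nbr RNAi and 11.22 ± 0.14 in control RNAi (SD, n = 5 each), a ratio of 1.13. The log2 fold change of 0.18 had a 95% interval of 0.021 to 0.34, with 0.073 as its standard error. This missed the threshold (limma, Benjamini-Hochberg adjusted p = 0.849, unadjusted p = 0.0307), and a 2-sided exact permutation test over the 252 splits of the arrays gave p = 0.0556. By unadjusted p it ranked 271 among the tested probe sets. Without nbr RNAi array 5 the log2 fold change was 0.17, with an interval of -0.0054 to 0.34. In the authors' deposited table the same probe set has a fold of 1.13, an unadjusted p of 0.0416 and a q-value of 19.5%.

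The proteases that release mammalian ATF6 in the Golgi have the fly counterparts S1P and S2P. S1P had a log2 fold change of -0.025 (95% interval -0.16 to 0.11) and S2P one of 0.033 (-0.048 to 0.11), and neither passed. The sign of S1P turned without nbr RNAi array 5, at 0.015. The Atf6 probe set carries the Affymetrix suffix _s_at, given to probe sets whose probes can match more than 1 transcript. The annotation lists 1 gene for each of these 2 probe sets.

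In the IRE1 branch, the sensor and its substrate both had mean levels slightly under those of the control, and neither passed. The ribonuclease gene ire-1 (FBgn0038736) has 2 probe sets. On the one that was tested, ire-1 read 10.14, 10.17, 10.24, 10.03 and 10.23 on nbr RNAi arrays 1 to 5, against 10.35, 10.22, 10.53, 10.25 and 10.01 on control arrays 1 to 5. All 5 nbr RNAi arrays lay under the control mean of 10.27, but control array 5 was the lowest of the 10. The SD was 0.084 in nbr RNAi and 0.19 in control RNAi (n = 5 each). For ire-1 this gave -0.11 as the log2 fold change, SE 0.086, 95% interval -0.30 to 0.084 (limma, Benjamini-Hochberg adjusted p = 0.885). The exact permutation p was 0.310. Its value moved most with 2 control arrays, shrinking to -0.044 without control array 3 and growing to -0.17 without control array 5. Without nbr RNAi array 5 it was -0.13, with an interval of -0.33 to 0.081.

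The other ire-1 probe set read 2.15 to 2.16 on the nbr RNAi arrays and 2.12 to 2.19 on the control arrays. That is under 2.37, the median of the mean levels of all probe sets other than controls, and it was not tested. Both probe sets list the same transcripts but read far apart, and which of them better reports ire-1 was not tested. The ire-1 fold changes given here rest on the brighter 1 alone.

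Xbp1 (FBgn0021872), the transcription factor gene whose mRNA is cut by IRE1, read 12.44, 12.51, 12.49, 12.51 and 12.77 on nbr RNAi arrays 1 to 5, against 12.61, 12.53, 12.67, 12.53 and 12.50 on control arrays 1 to 5. Array 5 of nbr RNAi was the highest of the 10, while nbr RNAi arrays 1 and 3 lay under every control array. Its log2 fold change was -0.025 (95% interval -0.17 to 0.12; limma, Benjamini-Hochberg adjusted p = 0.970), with an exact permutation p of 0.722. Without nbr RNAi array 5 it was -0.081, with an interval of -0.18 to 0.018 and in limma an unadjusted p of 0.0982 and a Benjamini-Hochberg adjusted p of 0.513. Its sign turned when nbr RNAi array 1 (0.0018) or control array 3 (0.00074) was left out. A probe set level does not separate spliced from unspliced Xbp1 mRNA.

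RtcB, known from mammals and worms as the ligase that joins the cut ends of Xbp1 mRNA, had a log2 fold change of -0.12 (95% interval -0.29 to 0.051) and did not pass. SPARC, an extracellular matrix gene described in fly cells as an mRNA that IRE1 degrades under ER stress, was at 0.19 (0.060 to 0.32) and missed the threshold too (limma, Benjamini-Hochberg adjusted p = 0.849). SPARC was taken from the plasmatocyte markers and is in none of the pathway lists. The gene fat-spondin, from the list of ER translocation and ATF6 or IRE1 processing, lay on the other side of 0. It was at -0.049 (-0.53 to 0.44), or -0.20 without nbr RNAi array 5, and did not pass. Its mean levels of 4.85 in nbr RNAi and 4.90 in control RNAi were near the minimum of 4. Among the 9 tested markers SPARC was the only 1 with an unadjusted p under 0.05 in limma, against 5.87% of all tested probe sets.

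The PERK branch and Gcn2 hold both eIF2alpha kinases of the list, and both genes were lowest on the same 2 arrays, nbr RNAi array 5 and control array 4. Neither passed the test. PEK (FBgn0037327), the ER kinase, read 10.02, 10.29, 10.20, 10.15 and 9.91 on nbr RNAi arrays 1 to 5, against 10.14, 9.998, 9.98, 9.88 and 10.08 on control arrays 1 to 5. The nbr RNAi arrays 2, 3 and 4 lay above every control array, and nbr RNAi array 5 was lower than all control arrays except array 4. PEK thus had 0.098 as its log2 fold change, SE 0.077, 95% interval -0.072 to 0.27 (limma, Benjamini-Hochberg adjusted p = 0.885), and the exact permutation p was 0.262. Without nbr RNAi array 5 it was 0.15, with an interval of -0.0028 to 0.30 and in limma an unadjusted p of 0.0536 and a Benjamini-Hochberg adjusted p of 0.487. Leaving out nbr RNAi array 2 gave 0.055, and leaving out control array 4 gave 0.064.

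Gcn2 (FBgn0019990) encodes the cytosolic eIF2alpha kinase that senses amino acid shortage, and so feeds the same step as PEK from outside the ER. It read 11.62, 11.72, 11.72, 11.69 and 11.27 on nbr RNAi arrays 1 to 5, against 11.51, 11.61, 11.48, 11.29 and 11.76 on control arrays 1 to 5. The first 4 nbr RNAi arrays lay above control arrays 1 to 4, and nbr RNAi array 5 was the lowest of the 10. Gcn2 thus had 0.071 as its log2 fold change, SE 0.10, 95% interval -0.16 to 0.30 (limma, Benjamini-Hochberg adjusted p = 0.947). The exact permutation p was 0.532. Leaving out nbr RNAi array 5 gave 0.15 (interval -0.030 to 0.34), and leaving out control array 4 gave 0.011.

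The transcription factor gene crc (FBgn0000370), the fly ATF4, had nearly equal means in both groups and did not pass. It read 14.80, 14.70, 14.73, 14.79 and 14.80 on nbr RNAi arrays 1 to 5, against 14.74, 14.73, 14.75, 14.77 and 14.76 on control arrays 1 to 5. The nbr RNAi arrays lay on both sides of the control range, 3 above and 2 under it, with an SD of 0.046 against 0.015 in control RNAi. For crc the log2 fold change was 0.013, SE 0.035, 95% interval -0.065 to 0.091 (limma, Benjamini-Hochberg adjusted p = 0.970), and the exact permutation p was 0.571. Without nbr RNAi array 5 the value was 0.0036, with an interval of -0.075 to 0.082. ATF4 is known to be controlled mainly at translation, which an mRNA level does not show.

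The chaperone genes, which are induced by ER stress, had nearly equal means in both groups. Hsc70-3 (FBgn0001218), the fly BiP, which holds unfolded chains in the ER and keeps the sensors inactive, read 14.94, 14.89, 14.86, 14.88 and 14.87 on nbr RNAi arrays 1 to 5, against 14.95, 14.86, 14.92, 14.92 and 14.92 on control arrays 1 to 5. Control array 2 was the lowest of the 10 and control array 1 the highest. The mean was 14.89 ± 0.029 in nbr RNAi and 14.92 ± 0.036 in control RNAi (SD, n = 5 each). For Hsc70-3 the log2 fold change was -0.027 with a 95% interval of -0.10 to 0.050 (limma, Benjamini-Hochberg adjusted p = 0.938), and the exact permutation p was 0.206. Leaving out nbr RNAi array 5 gave -0.022, with an interval of -0.10 to 0.056.

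Gp93 (FBgn0039562), the ER member of the Hsp90 family, read 13.72, 13.88, 13.86, 13.80 and 13.90 on nbr RNAi arrays 1 to 5, against 13.91, 13.79, 13.92, 13.68 and 13.79 on control arrays 1 to 5. Both groups spanned nearly the same range. The log2 fold change was 0.013 with a 95% interval of -0.11 to 0.14 (limma, Benjamini-Hochberg adjusted p = 0.987, exact permutation p = 0.841), and its sign turned after quantile normalization, at -0.0051, and without nbr RNAi array 5, at -0.0040.

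**Figure D2:**
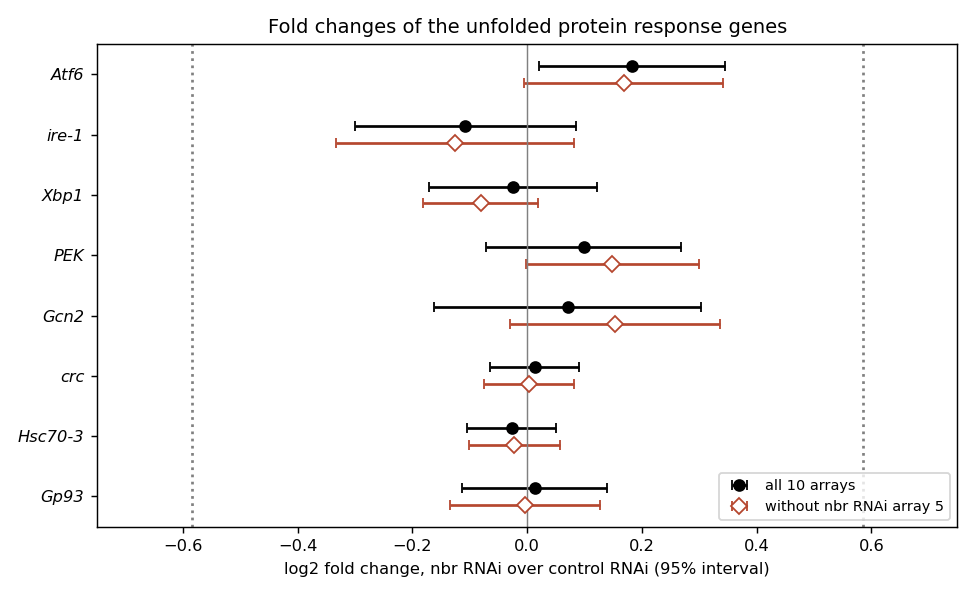
Log2 fold change of each member, nbr RNAi over control RNAi, with its 95% limma interval, from all 10 arrays (filled circles) and without nbr RNAi array 5 (open diamonds); dotted lines mark 1.5-fold in either direction. Every interval lies inside the dotted lines, and the Atf6 interval excludes 0 with all arrays but not without array 5.

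These intervals bound the difference between the mean levels. For 8 of 8 members the 95% interval lay within 1.5-fold in either direction, as it did for 92.9% of all tested probe sets. Within 1.2-fold it lay for 4 of 8, Xbp1, crc, Hsc70-3 and Gp93, against 62.6% of all tested. Of these, crc and Hsc70-3 read above 14 on the log2 scale, and whether the signal is compressed there was not tested. The bounds hold for mean levels over these 5 cultures per group and for the values as normalised, in which a shift common to all genes would not show. The number of arrays limits their precision.

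The members differed widely in how much they varied between replicates. The pooled SD within groups was 0.033 for Hsc70-3 and 0.034 for crc, smaller than in all but 1.51% and 1.91% of tested probe sets. It was largest for Gcn2, at 0.18, where 75.8% of tested probe sets had a smaller one, and the median of all tested was 0.12. Both even genes read above 14 on the log2 scale. The 346 tested probe sets with a mean of at least 14 had a median pooled SD of 0.046, and how far the upper end of the array's range sets this was not tested.

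Array 5 of nbr RNAi went in opposite directions for different members. Set against the mean of nbr RNAi arrays 1 to 4 it was lower for the eIF2alpha kinases, with differences of -0.41 for Gcn2 and -0.25 for PEK. It was higher for Xbp1, with a difference of 0.28. For the other 5 members the difference ran from -0.025 for Hsc70-3 to 0.090 for ire-1, with Gp93 at 0.085, Atf6 at 0.071 and crc at 0.046. These are differences between 1 array and the mean of 4, and no test was made of them.

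For most tested probe sets this array lay outside the range of nbr RNAi arrays 1 to 4. Any 1 array of a group lies outside the range of the others for some probe sets, and that share was not computed for the other arrays. Array 5 lay outside it for 5 of 8 members, Xbp1, crc and Gp93 above and PEK and Gcn2 under it, against 72.1% of all tested probe sets. Over all tested, 45.6% were above and 26.4% under. The median size of the difference was 0.087 in the members and 0.18 over all tested. The largest one among the members, for Gcn2, exceeded that of 83.0% of tested probe sets, that for Xbp1 exceeded 69.3% and that for PEK 63.4%. The difference for crc, the other gene of the PERK branch, exceeded that of only 14.4%. Of the 9 tested plasmatocyte markers 6 were lower on this array and 3 higher. The lower ones had differences of -1.51 for eater, -1.18 for Hml, -0.37 for crq, -0.31 for srp, -0.16 for Ppn and -0.063 for vkg, and the higher ones 0.34 for NimC1, 0.27 for Pxn and 0.16 for SPARC. The nbr difference on this array, 0.81, was larger than that of 94.3% of tested probe sets. The summed linear level of the markers, as log2, ran from 15.19 to 15.52 in nbr RNAi and from 15.28 to 15.45 in control RNAi. In RNA from whole cultures, fewer cells of a type and less RNA per cell cannot be told apart. The part of these markers, or of the nbr level, in the values of the members was not tested.

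**Figure D3:**
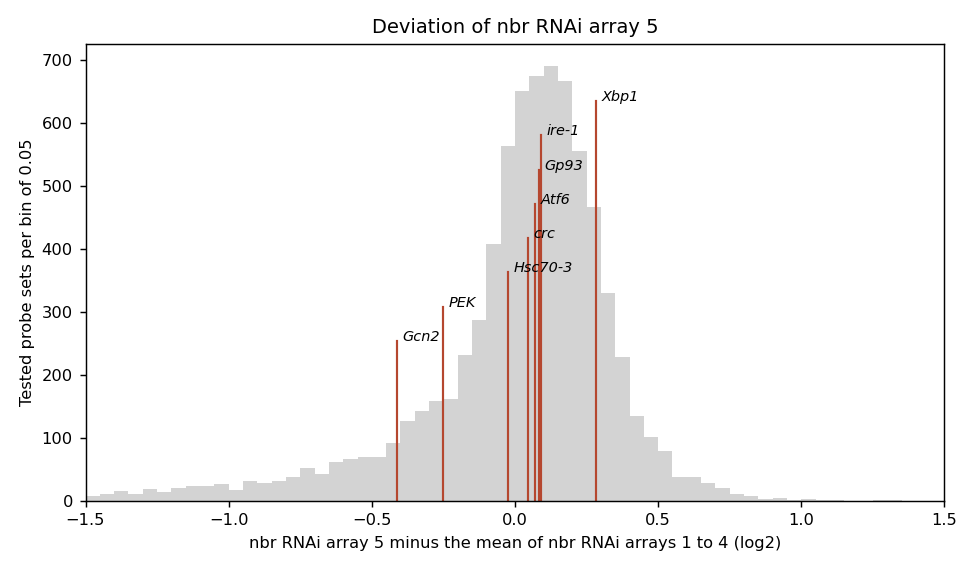
Level on nbr RNAi array 5 minus the mean of nbr RNAi arrays 1 to 4, on the log2 scale; the grey histogram counts the tested probe sets per bin of 0.05, and each red line is 1 member, at heights chosen only to separate the names. Gcn2 and PEK lie to the left and Xbp1 to the right, all within the bulk of the histogram; 145 probe sets beyond 1.5 in either direction are not drawn.

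With that array left out, the log2 fold changes of 4 members grew in size, those of PEK, Gcn2, Xbp1 and ire-1, against 56.6% of all tested probe sets. One sign turned, that of Gp93, against 20.7% of all tested. None of the 8 passed, against 0.0388% of all tested, and 0 of 8 had an unadjusted p under 0.05 in limma, against 10% of all tested. The members' median log2 fold change was then -0.00020, against 0.0056 for all tested probe sets.

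The other genes of the pathway gave 0 calls in 52 tested genes of 4 lists, each read on its brightest tested probe set, against 0.0259% of all tested probe sets. The sign turned for 10 of the 52 without nbr RNAi array 5, against 20.7% of all tested probe sets. A further 26 moved by over 1.5 times, and that share was not computed over all tested. Of 12 tested ER chaperone and oxidative folding genes 6 lay above 0 and 6 below, and the median log2 fold change was -0.0024. The J-domain protein gene CG7872 was at 0.11 (95% interval -0.0060 to 0.22). The lectin chaperone genes Calr, the calreticulin noted above, and Cnx99A, for calnexin, were at -0.064 (-0.18 to 0.050) and 0.048 (-0.047 to 0.14). Sil1, a nucleotide exchange factor of BiP, was at 0.045 (-0.062 to 0.15). Pdi and wbl lay under the minimum level, and 0 of the 12 had an unadjusted p under 0.05 in limma, against 5.87% of all tested. CG7872 was at 0.065, Cnx99A at 0.025 and Sil1 at 0.027 without nbr RNAi array 5.

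Of 13 tested genes of ER-associated degradation, which draws misfolded proteins out of the ER for the proteasome, 9 had a positive log2 fold change, against 52.9% of all tested probe sets, and the median was 0.027. Der-2, a derlin of the ER membrane, was at 0.10 (95% interval 0.0021 to 0.20) and was the only one of the 13 with an unadjusted p under 0.05 in limma, against 5.87% of all tested. Its Benjamini-Hochberg adjusted p was 0.849. Hrd3, a partner of the ubiquitin ligase Hrd1, was at 0.087 (-0.025 to 0.20), and Edem2, which binds misfolded glycoproteins, at 0.099 (-0.051 to 0.25). Ufd1, a cofactor of the segregase TER94, was at -0.084 (-0.20 to 0.030). Edem2 was at 0.059 without nbr RNAi array 5.

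Of 13 tested genes of eIF2 signalling or linked to ATF4, 8 had a negative log2 fold change, against 47.1% of all tested, and the median was -0.014. The pseudokinase gene trbl (tribbles), whose mammalian relative TRIB3 is induced by ATF4, was at -0.21 (95% interval -0.43 to 0.000048; limma, Benjamini-Hochberg adjusted p = 0.850). eIF2beta, another subunit gene of eIF2, was at -0.092 (-0.21 to 0.025) and CG10365 at 0.11 (-0.054 to 0.27). The kinases' own substrate gene, eIF2alpha, was at -0.11 (-0.29 to 0.077). Thor, the fly 4E-BP and a described target of ATF4, was at -0.10 (-0.33 to 0.12), and PPP1R15, which directs dephosphorylation of eIF2alpha, at 0.017 (-0.086 to 0.12). None of the 13 had an unadjusted p under 0.05 in limma, against 5.87% of all tested. CG10365 was at 0.044, Thor at -0.052 and PPP1R15 at 0.0031 without nbr RNAi array 5.

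Of 14 tested genes of ER translocation and of ATF6 or IRE1 processing, 8 were negative and 6 positive, with a median of -0.011. The adaptor gene Traf6 was the only one of the 52 whose groups did not overlap, against 0.97% of all tested probe sets. Traf6 entered the list through its older name Traf2, and whether it has a part in IRE1 signalling was not tested. It read 10.88, 10.94, 10.90, 10.92 and 11.09 on nbr RNAi arrays 1 to 5, against 10.79, 10.79, 10.77, 10.62 and 10.85 on control arrays 1 to 5. Its log2 fold change was 0.18 (95% interval 0.054 to 0.30), with an unadjusted p of 0.00931 and a Benjamini-Hochberg adjusted p of 0.849 in limma. SrpRbeta, a subunit of the receptor for the signal recognition particle, was at -0.10 (-0.25 to 0.048), and BI-1, an ER membrane protein that protects against cell death, at 0.065 (-0.089 to 0.22), or 0.017 without nbr RNAi array 5.

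**Figure D4:**
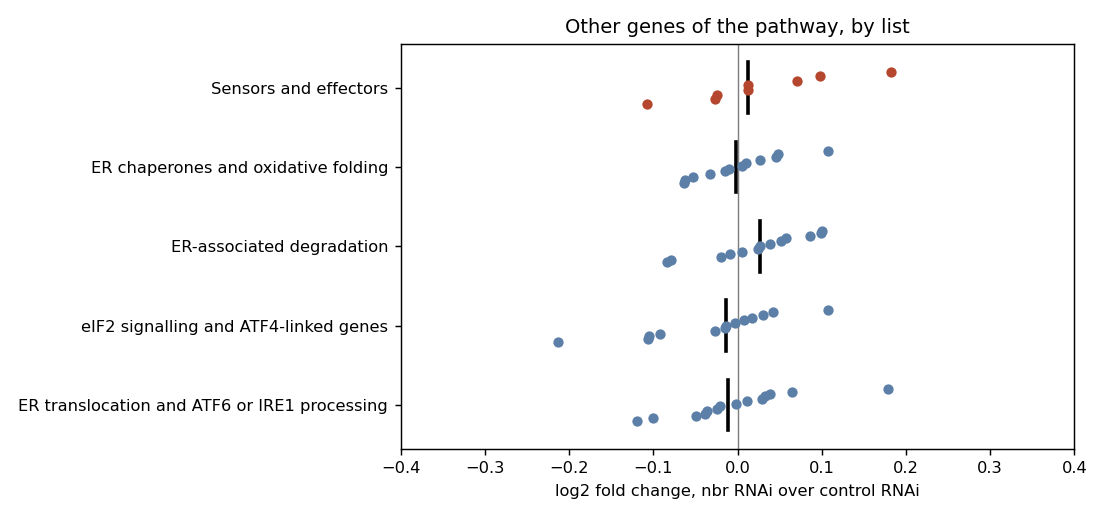
Log2 fold change, nbr RNAi over control RNAi, of each tested gene of the sensors and effectors (top row) and of the 4 other lists of the pathway, with black bars at the medians; points are spread vertically only to separate them. The medians lie between -0.014 and 0.027, and the outermost points are trbl at -0.21 and Atf6 at 0.18.

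The members with the widest range over the 10 arrays were ire-1, at 0.51, and Gcn2, at 0.48. The genes whose mean-centred levels were closest to those of Gcn2 were Art4, an arginine methyltransferase gene, CG31224, and Src42A, a tyrosine kinase gene, with mean absolute differences of 0.045, 0.047 and 0.047 over the 10 arrays. Gcn2 itself deviated from its own mean by 0.14 on average. These genes were chosen over all 10 arrays, nbr RNAi array 5 included, so that a low level on that array was part of the choice. Closest to ire-1 were Cpr67Fb, a cuticle protein gene, CG34330 and pcs, with mean absolute differences of 0.042, 0.052 and 0.052, where ire-1 deviated from its own mean by 0.10 on average. With 10 arrays and 7729 probe sets, close matches of this kind are a description only.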

How the data were processed

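Per the labels' protocols, TRIzol-extracted RNA was amplified with Ovation Pico WTA and biotin-labelled. The authors deposited 1 log2 level per probe set and array. The submitters' processing notes name GCRMA and Partek, and versions and the order of use are not given there. The authors' deposited table also holds a signed fold and a score, a q-value in percent and an unadjusted p-value per probe set, per the file headers, which write tmr in place of nbr. Its array columns equal those of the value table in 189520 of 189520 cells.

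Levels were used as deposited. Non-control probe sets whose mean log2 level over the 10 arrays reached 4 were tested, 7729 in all. limma 3.58.1 (lmFit, eBayes; R 4.3.3) fitted nbr RNAi minus control RNAi with no covariates. Tests were 2-sided, with Benjamini-Hochberg adjustment over all tested probe sets and a threshold of 0.05. Single members were also compared with exact permutation tests over 252 splits. The fit was also run on simulated data with independent noise and no outlying array, a setting unlike the data here. Plots were made with matplotlib 3.10.9 and tables with pandas 2.3.3 in Python 3.11.15.

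The members and the lists were chosen with earlier results of these data known. From each list up to 4 genes with the smallest p are named. Thor, PPP1R15, S1P, S2P, fat-spondin and some cell type markers were added after their values were seen. For the 2 members with the widest range, the 3 genes closest by mean absolute difference of centred levels are named. Array symbols were brought up to date by accession or synonym with RefSeq gene names (assembly Release 6 plus ISO1 MT), in which ire-1 is Ire1 and nbr is Nbr. Listed genes without a probe set of their own symbol were looked up by accession in that table, and Sdf2, sordd2, eIF2gamma, CG6287 and Psat were not matched. In the same table the spans of ire-1, Gcn2, crc and Gp93 overlap those of MICU3, PNPase, CG46314 and CG4951, and where the probes lie was not analysed here. No coordinates or sequences are printed, since neither the build behind the array nor a sequence table was used here.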

Additional observations from a re-analysis of the deposited data

Results flagged for a closer look

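In nbr RNAi, array 5 lay far from the other 4 arrays for 2 members. For Xbp1 it read 12.77, against 12.44 to 12.51 on nbr RNAi arrays 1 to 4, a gap of 0.779 of the group's range. For Gcn2 it read 11.27, against 11.62 to 11.72, a gap of 0.788 of the range. Both exceed Dixon's critical value of 0.71 for 5 arrays, which chance exceeds in about 1 of 20 groups, and 16 groups were examined. The groups share their arrays, and array 5 lay outside the range of nbr RNAi arrays 1 to 4 for 72.1% of all tested probe sets. The share of all tested probe sets over the critical value was not computed, so whether the 2 members stand out from the array is not known.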

How the results depend on the processing

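The count of members called was 0 in limma under every alternative run, and the lowest Benjamini-Hochberg adjusted p of a member over them was 0.393, for Atf6 with array weights. The alternatives were no filter or a minimum level of 6, a threshold of 0.1, array weights, median centring, quantile normalization, a trended robust variance, a single probe set per gene, the replicate number as a block and leaving out each of the 10 arrays. No call was gained. The filters, the variance model, the block and a single probe set per gene leave a member's fold change as it is by construction, and of 104 fold changes recomputed under the other settings 98 kept their sign and 6 reversed. The reversed ones were Gp93 with quantile normalization (-0.0051) and array weights (-0.022), and, leaving out single arrays, Gp93 (-0.021 to 0.041) and Xbp1 (-0.081 to 0.0018), and the cause was not tested. The number of all tested probe sets called, 2, was 4 at a threshold of 0.1, 4 with median centring, 4 with array weights and 1 to 3 when an array was left out. With the replicate number as a block it was 1 and no member was called. Deviations of same-numbered arrays from their group means had correlations of -0.465 to 0.184. These gave no sign of pairing by number, though 5 arrays per group cannot exclude it. Lists without nbr RNAi array 5, an alternative chosen after seeing the data, also gave 0 calls, with medians of -0.016 for chaperones, 0.010 for degradation, -0.052 for eIF2 signalling and -0.026 for translocation and processing. Probe sets near background, such as the second one of ire-1, give no limit on a change.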
